A study of Rattus norvegicus with 20 samples.

Results

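Sensory neuron identity transcription factors were examined as a group of 9 genes in rat dorsal root ganglia (DRG): Isl1, Pou4f1, Pou4f2, Drgx, Prdm12, Runx1, Runx3, Etv1 and Tlx3. They were taken by gene symbol from the count table, which lists 39747 genes, and all 9 were found there. RNA of 20 DRG from 14 female Sprague-Dawley rats, 8 to 10 weeks old, was sequenced after poly-A selection. Rats had eaten a soy oil diet (SOD) or an omega-3 fish oil diet (FOD) for 4 weeks before chronic constriction injury (CCI), for which the left sciatic nerve received 4 loose chromic gut ties, or before sham surgery (CT), in which that nerve was only exposed. Collection of the DRG was taken to be 1 week after surgery. This time is not settled, because a diet period of 4 weeks after surgery is also recorded for every library. The left DRG gave 4 libraries of SOD-CT, 3 of FOD-CT, 3 of SOD-CCI and 4 of FOD-CCI. The right, contralateral DRG of 3 SOD-CCI and 3 FOD-CCI rats gave 6 more, and no sham rat had a contralateral library. All rats were wild type, 1 replicate is 1 rat, and each DRG sample holds neurons, glia and other cells together.

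The 9 genes encode DNA-binding regulators that set and keep the identity of sensory neurons. Isl1 (a LIM homeodomain factor) and Pou4f1 (Brn3a) mark sensory neurons broadly and turn embryonic precursors toward a sensory program, and Pou4f2 (Brn3b) is of the same POU4 family as Pou4f1. Drgx, Prdm12, Runx1 and Tlx3 belong to the nociceptor branch, which senses pain, heat and itch, whereas Runx3 and Etv1 belong to the proprioceptor and mechanoreceptor branch, which senses limb position and touch. In adult DRG these factors are read as markers of how far a neuron keeps its mature type after a nerve lesion.

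Library totals ran from 22547190 to 54437581 counts. 3 libraries carried spinal cord transcripts: FOD-CT replicate 1 and, from a single rat, both the left and the contralateral library of FOD-CCI replicate 1. The summed level of 12 spinal cord markers was 3133 to 5239 CPM (counts scaled to the library total) in these 3 libraries and 23.6 to 88.8 CPM in the other 17. The library labelled FOD-CCI contralateral replicate 1 also lacked defining genes of the ganglion: Scn10a was at 0 and Avil at 5.01 CPM, against at least 197 CPM for Avil in the other 17. The library labelled FOD-CCI replicate 1 went against its injury label, with Atf3, a stress factor switched on by axon injury, at 3.27 CPM, while the other 6 left CCI libraries had 202 to 501 CPM and the 7 sham libraries 13.1 to 47.3 CPM. SOD-CT replicate 1 carried skeletal muscle transcripts, with 12 muscle markers summing to 118882 CPM, against 7.72 to 26994 CPM in the other 16 libraries without spinal cord transcripts. Every comparison was therefore made with all libraries and again without the 3 libraries with spinal cord transcripts, and the left comparisons a further time without the muscle library.

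The summed level of the 9 factors was 93.7, 237 and 299 CPM in the libraries labelled FOD-CCI contralateral replicate 1, FOD-CT replicate 1 and FOD-CCI replicate 1, and 243 CPM in the muscle library. In the other 16 libraries it was 364 to 716 CPM, so all 4 libraries lay below the rest, and the contralateral one was lowest. In the library labelled FOD-CCI contralateral replicate 1, Isl1, Prdm12 and Runx3 were at 0 counts, which allows a level of up to 0.133 CPM, and Tlx3 had 9, Runx1 10, Drgx 44 and Pou4f2 45 counts. Pou4f1 stood at 10.6% and Etv1 at 37.6% of the median of the 17 libraries, and Etv1 had the highest such share of the 9 there. For 8 of the 9 members the level was below every one of the 17 libraries. Of 24 nociceptor genes in a list, 10 were at 0 counts in that library and 19 were below all 17 others. Other lists were less depleted there. Of 17 proprioceptor and mechanoreceptor genes 5 were below all 17 others, with a median of 69.6% of their level. Others of that list were above the median of the 17 libraries, up to 938% for Kcnc1. These shares are therefore not a measure of ganglion expression kept in that library. Of 16 neuron markers 9 were below, with a median of 19.5%. How far the tissue makeup of these libraries accounts for their low values was not tested.

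**Figure D1:**
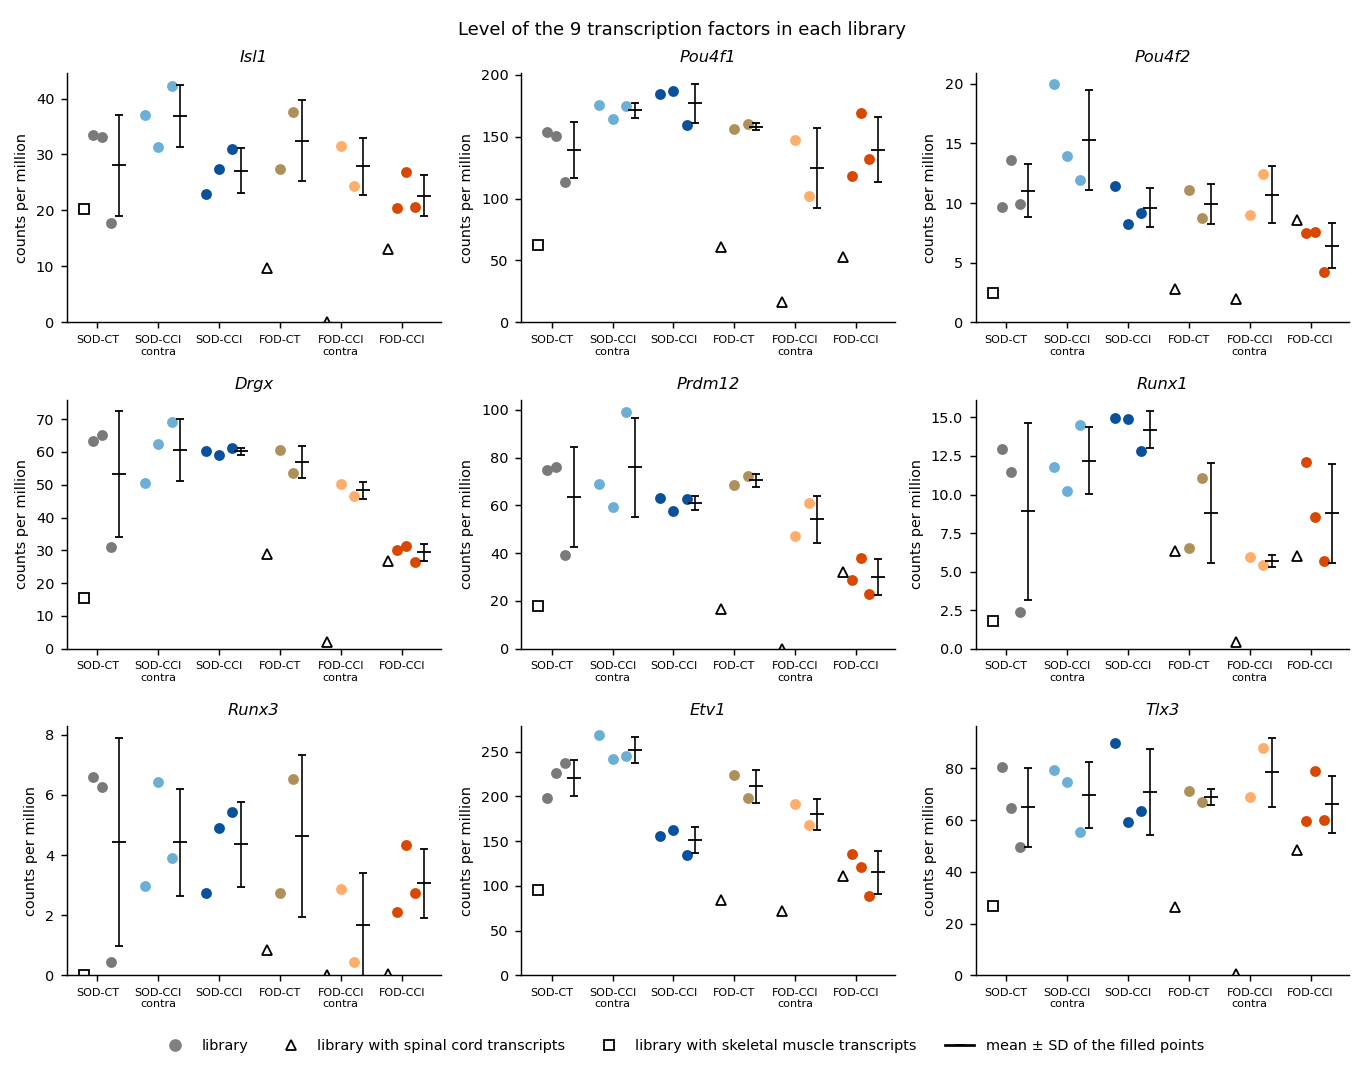
Level of each of the 9 factors in CPM (vertical axis, linear from 0) in each of the 20 libraries, grouped by diet, surgery and side; open triangles are the 3 libraries with spinal cord transcripts, the open square is the library with skeletal muscle transcripts, and the bar is the mean ± SD of the filled points (n = 2 or 3). Drgx and Prdm12 had filled points in FOD-CCI that sit between 26.6 and 31.5 CPM and between 23.1 and 37.8 CPM.

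Levels of different genes were compared per length, in FPKM as deposited (fragment counts scaled to gene length and per library). This scaling is not that of CPM. In the muscle library Isl1 was at 20.2 CPM, below the median of 27.4 CPM, but at 30.3 FPKM, above the median of 27.3 FPKM. Over the 17 libraries, Tlx3, a homeodomain factor of glutamatergic sensory fate, had the highest median level at 39.5 FPKM, above Pou4f1 in 17 of 17 libraries. Pou4f1, Isl1 and Etv1 followed at 28.8, 27.3 and 27.0 FPKM and did not differ beyond their spread, since Pou4f1 exceeded Isl1 in 9 of 17 libraries and Isl1 exceeded Etv1 in 9 of 17. Drgx came next at 21.2 FPKM, below Etv1 in 14 of 17 libraries, and Prdm12 at 10.98 FPKM, below Drgx in 17 of 17. Runx1, Pou4f2 and Runx3 were the lowest, at 4.91, 2.82 and 2.79 FPKM. Pou4f2 exceeded Runx3 in 9 of 17 libraries, so the order of these genes was not settled by the libraries.

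**Figure D2:**
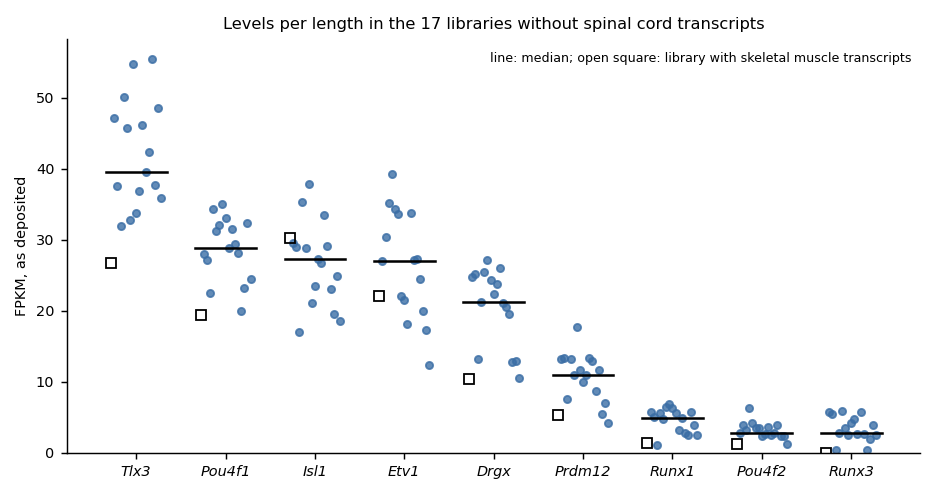
Level per length of the 9 factors, in FPKM as deposited (vertical axis, linear from 0), in the 17 libraries without spinal cord transcripts; each point is 1 library, the line is the median and the open square is the library with skeletal muscle transcripts. Tlx3 had the highest median at 39.5 FPKM, and Runx1, Pou4f2 and Runx3 sat below 7 FPKM in every library.

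Relative spread over the 17 libraries was smallest for Pou4f1, with a coefficient of variation of 17.2% in FPKM, and largest for Runx3 at 59.0%. Runx3, a runt-domain factor of proprioceptors, was counted 0 to 247 times per library. It was at 0 in the muscle library SOD-CT replicate 1, at 12 counts in SOD-CT replicate 4 and at 11 counts in the contralateral library of FOD-CCI replicate 3. Runx1, its nociceptor paralog, was also low in SOD-CT replicate 1 and 4, at 1.80 and 2.36 CPM, against 12.97 and 11.4 CPM in replicates 2 and 3. The SOD-CT group was therefore split for both runt-domain genes, and SOD-CT replicate 4 also held 6504 CPM of muscle markers.

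The upstream sequences of the 3 factors whose levels the comparisons below turn on are shown to place them in the genome. They are the 250 bases before the annotated gene start in the RefSeq annotation of the GRCr8 build, 5′ to 3′ on the strand of the gene, with matches to the searched motifs in capitals. All 9 members had at least 1 such window, and Prdm12 and Runx3 had 2 each, which gave 11 windows. Etv1 encodes an ETS factor needed for muscle afferents, Drgx a paired-class homeodomain factor of nociceptors, and Prdm12 a zinc finger regulator without which nociceptors do not form. The Drgx window is chr16:7860907-7861156 (+), the Prdm12 window shown is the second of its 2 at chr3:35325758-35326007 (+), and the Etv1 window is chr6:61317179-61317428 (+).
Drgx: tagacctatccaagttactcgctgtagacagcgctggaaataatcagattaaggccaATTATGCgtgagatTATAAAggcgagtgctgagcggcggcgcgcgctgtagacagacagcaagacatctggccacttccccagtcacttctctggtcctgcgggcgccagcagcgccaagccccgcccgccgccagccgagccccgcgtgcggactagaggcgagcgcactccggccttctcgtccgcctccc
Prdm12: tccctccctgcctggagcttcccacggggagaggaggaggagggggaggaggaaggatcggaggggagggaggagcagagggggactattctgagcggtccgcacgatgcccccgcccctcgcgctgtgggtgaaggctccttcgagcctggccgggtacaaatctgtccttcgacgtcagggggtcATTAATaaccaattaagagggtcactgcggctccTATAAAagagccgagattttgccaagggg
Etv1: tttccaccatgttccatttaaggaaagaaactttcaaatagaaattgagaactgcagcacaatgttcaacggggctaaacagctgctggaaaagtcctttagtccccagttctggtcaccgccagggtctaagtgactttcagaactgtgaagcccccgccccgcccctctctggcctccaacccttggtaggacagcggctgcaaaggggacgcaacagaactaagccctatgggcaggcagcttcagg

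7 motifs were searched on both strands. The letters GCATAAT stand for POU4-type sites, TAATTA with its variant form ATTAAT for homeodomain sites, TGTGGT for runt sites, TGACTCA for AP-1 sites, TGACGTCA for CRE sites and TATAAA for the TATA box. No match overlapped another in the printed windows. In Drgx, the reverse complement of the POU4-type motif starts at position -193 from the gene start and the TATA box at -179. The POU4-type motif was found in 436 of 33469 promoters (1.3%), and Drgx was the only member with it. In Prdm12, the homeodomain variant starts at -63 and the TATA box at -29, and these 2 motifs were found in 4.71% and 12.9% of all promoters. The Etv1 window held none of the 7 motifs, which says only that these letters are not in this window.

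Etv1 was the only member with a log2FC below 0 in all 26 fits of CCI against CT averaged over diets and all 15 of left against contralateral. With all libraries edgeR called no member, and in some fits below Prdm12 had the smaller adjusted p. Its levels were 95.3, 198, 226 and 237 CPM in SOD-CT and 156, 163 and 134 CPM in SOD-CCI. They were 84.2, 224 and 198 CPM in FOD-CT and 111, 136, 121 and 88.8 CPM in FOD-CCI, listed by replicate. Without the 3 libraries with spinal cord transcripts and SOD-CT replicate 1, every SOD-CCI library lay below every SOD-CT library, as was so for 9.93% of 15177 genes and for no other member. In the fish oil diet, without the 3 libraries with spinal cord transcripts, every FOD-CCI library lay below both FOD-CT libraries. This was so for 5 of the 9 members (Isl1, Pou4f2, Drgx, Prdm12 and Etv1) and for 13.8% of 14688 genes. It was also so for the summed level of 16 neuron markers, at 24290 to 33914 CPM in FOD-CCI and 36514 to 37689 CPM in FOD-CT. The part of neuron content in these values was not tested. Within the neuron list, Nefl, Nefm and Nefh had the highest medians over the 17 libraries without spinal cord transcripts. Those were 6821, 5571 and 4281 CPM. The summed level, and the scaling to that list used below, therefore follow these neurofilament genes most and do not count neurons. For Etv1, the contralateral DRG had 269, 242 and 245 CPM in SOD-CCI rats and 72.2, 192 and 168 CPM in FOD-CCI rats. Each value except that of the library labelled FOD-CCI contralateral replicate 1 was above the left DRG of the same rat.

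The first comparison asked whether these factors differ between CCI and sham ganglia on the operated side, averaged over diets. The test was edgeR's quasi-likelihood test across 14484 genes, and a gene was called when its Benjamini-Hochberg adjusted p was at most 0.1 and its fold change at least 1.2. With all 14 left libraries no member was called, against a background of 0% of genes called. At an unadjusted p under 0.05 the test held 1661 genes (11.5%), among them Etv1, with a log2FC of -0.50 ± 0.22 (SE) and an adjusted p of 0.402 by edgeR. Of the 8 members fitted, 5 had a value below 0 and 3 above, with a median log2FC of -0.11 against -0.01 for all genes. Runx3 did not pass the filter of 10 counts in 90% of libraries. In whole ganglia, fewer neurons of a type and less RNA per neuron cannot be told apart.

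Without the 3 libraries with spinal cord transcripts, Etv1 fell by 0.67 ± 0.17 (SE) on the log2 scale, to a fold of 0.628, with an adjusted p of 0.0766 by edgeR, and 458 of 14688 genes were called (3.12%). Leaving out the muscle library as well gave -0.74 ± 0.15 for Etv1 (adjusted p = 0.0149) and -0.66 ± 0.18 for Prdm12 (adjusted p = 0.0570), so 2 of 9 members were called, both lower, where 7.77% of 15177 genes were called and 3.44% were called lower. Drgx stood at -0.41 ± 0.17 there, with an adjusted p of 0.222, and was not called. With the replicate number as a block in these 11 libraries, both calls held (adjusted p = 0.0686 for Etv1 and 0.0450 for Prdm12). Scaled to 16 neuron markers instead of to all genes, Etv1 stood at -0.54 ± 0.20 without the 3 libraries and was no longer called (adjusted p = 0.238). With that scaling and without the muscle library as well, Etv1 was called at -0.49 ± 0.17 (adjusted p = 0.0988), and Prdm12 at -0.41 ± 0.16 was not (adjusted p = 0.140). The neuron list itself had a median log2FC of -0.03 without the 3 libraries, with 2 genes called lower and 1 called higher. Myelinating Schwann cell markers were lower in 8 of 8 genes with 0 called, and macrophage markers were higher in 10 of 10 with 4 called. Skeletal muscle markers were lower in 5 of 5 tested with 4 called, and the muscle library is a sham library. Leaving it out did not remove muscle from the sham groups. SOD-CT replicate 4 still held 6504 CPM and FOD-CT replicate 2 26994 CPM of muscle markers, while the left CCI libraries had at most 245 CPM. Whether the cell makeup of these ganglia had a part in the Etv1 and Prdm12 values was not tested.

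Isl1, Pou4f1, Pou4f2, Tlx3, Runx1 and Runx3 gave no call in this comparison. Isl1 had a log2FC of -0.32 (95% interval -0.71 to 0.08), Pou4f1 of 0.12 (-0.20 to 0.45) and Pou4f2 of -0.30 (-0.98 to 0.38) without the 3 libraries. Tlx3 stood at 0.08 (-0.33 to 0.50), Runx1 at 0.47 (-0.47 to 1.41) and Runx3, which passed the filter in these libraries, at -0.10 (-1.90 to 1.71). The interval of Pou4f1 and that of Tlx3 end within 0.50 on the log2 scale, while those of Runx1 and Runx3 reach past 1.

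**Figure D3:**
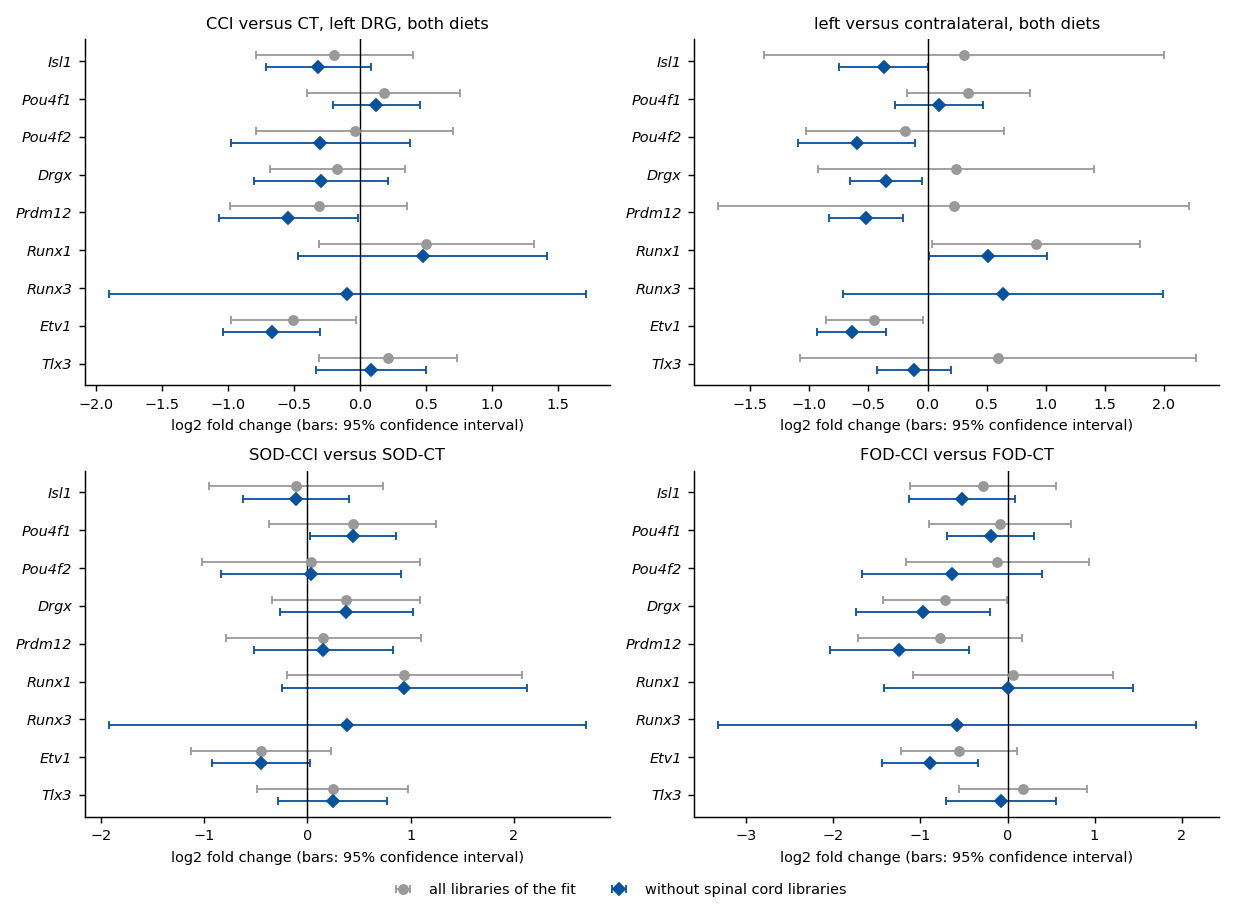
Log2 fold change of each factor (horizontal axis, bars the 95% confidence interval) in 4 comparisons, with all libraries of the fit (grey circles) and without the libraries with spinal cord transcripts (blue diamonds); Runx3 was fitted only in the latter. Etv1 sits below 0 in all 4 panels, Prdm12 and Drgx are lowest in FOD-CCI versus FOD-CT, and several grey intervals in the left versus contralateral panel span more than 2 on the log2 scale.

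The second comparison set the left DRG against the contralateral DRG of the same rat, with the rat as a block, over 12 libraries of 6 CCI rats. With all 6 rats no member was called, where 140 of 14549 genes were called (0.962%). The log2FC of Etv1 was -0.45 ± 0.18 (adjusted p = 0.382) and that of Runx1 0.92 ± 0.39 (adjusted p = 0.410). The other 6 fitted members had standard errors of 0.23 to 0.88, and Isl1, Drgx, Prdm12 and Tlx3 had values of 0.31, 0.24, 0.22 and 0.60. These 4 signs rest on the rat of FOD-CCI replicate 1, whose contralateral library was at or near 0 for the members: its log2 ratios of left to contralateral CPM were 9.21 for Isl1, 10.51 for Prdm12 and 6.84 for Tlx3. These ratios were taken after adding 0.5 counts and are no bound where a library was at 0.

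Without that rat, 1146 of 14992 genes were called (7.64%), and 3.33% were called lower. Etv1 fell by 0.64 ± 0.13 on the log2 scale (fold 0.641, adjusted p = 0.0262 by edgeR) and Prdm12 fell by 0.52 ± 0.14 (fold 0.698, adjusted p = 0.0739), and they were the 2 of 9 members called. Pou4f2 at -0.60 ± 0.22 and Drgx at -0.35 ± 0.14 had adjusted p of 0.175 and 0.195, and were not called. Isl1 stood at -0.37 ± 0.17, Tlx3 at -0.11 ± 0.14 and Pou4f1 at 0.10 ± 0.17. Scaling to the neuron list removed both calls, with adjusted p of 0.266 for Etv1 and 0.429 for Prdm12. Of 16 neuron markers, 3 were called lower and 2 higher in these 5 rats before that scaling. Muscle markers summed to 9254 CPM in the contralateral library of FOD-CCI replicate 3 and 2391 CPM in that of SOD-CCI replicate 2. The left libraries of these rats had 9.55 and 11.9 CPM. Whether muscle had a part in the values of the factors was not tested.

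Etv1 was then read rat by rat. Its log2 ratio of left to contralateral CPM was -0.78, -0.57 and -0.86 in the SOD-CCI rats and 0.62, -0.50 and -0.47 in the FOD-CCI rats. It was lower on the left in 5 of 6 rats (exact two-sided permutation test over sign changes, p = 0.156), and in 5 of 5 without the rat of FOD-CCI replicate 1 (exact p = 0.0625). That p is the smallest that 5 rats allow, and 6 rats allow 0.03125. Prdm12 and Pou4f2 were also lower on the left in 5 of these 5 rats (exact p = 0.0625 each), with means of -0.45 ± 0.33 (SD) and -0.59 ± 0.24. For Prdm12 the ratios were -0.13, -0.04 and -0.67 in SOD-CCI rats and -0.70 and -0.69 in the FOD-CCI rats, so the first pair of values was close to 0. The 9 exact tests were not adjusted for their number.

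**Figure D4:**
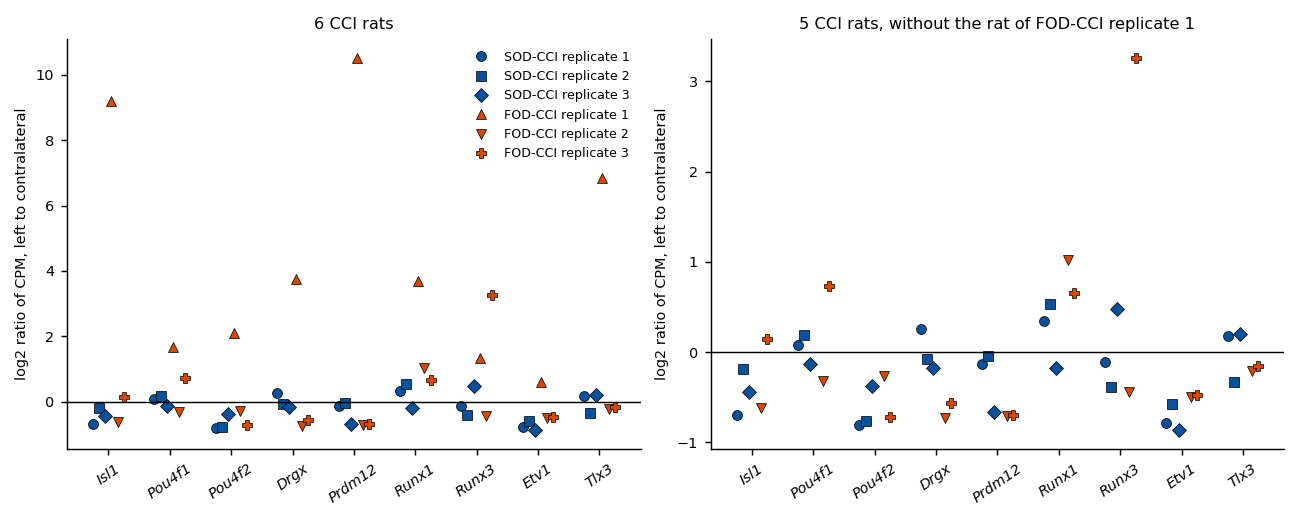
Log2 ratio of left to contralateral CPM within each CCI rat (vertical axis) for the 9 factors, on the left for all 6 rats and on the right without the rat of FOD-CCI replicate 1, with a different scale; 0.5 counts were added to each count. Etv1 lies between -0.86 and -0.47 in the 5 rats on the right, and the left panel shows ratios of up to 10.51 in the rat left out.

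Runx1 had a log2FC above 0 in left against contralateral. Its levels were 14.9, 14.9 and 12.8 CPM in SOD-CCI and 11.8, 10.2 and 14.5 CPM on the contralateral side, and 6.03, 12.1, 8.56 and 5.70 CPM in FOD-CCI against 0.444, 5.95 and 5.41 CPM contralaterally. It was higher on the left in 5 of 6 rats (exact p = 0.0625) and in 4 of 5 without the rat of FOD-CCI replicate 1 (exact p = 0.125). The edgeR value without that rat was 0.51 ± 0.22 (adjusted p = 0.248), not called. In the FOD-CCI rats alone, DESeq2 called Runx1 with all 3 rats at 1.67 ± 0.53 (adjusted p = 0.0908), while edgeR gave 1.65 ± 0.58 (adjusted p = 0.623) there and 0.84 ± 0.35 (adjusted p = 0.377) without the rat of FOD-CCI replicate 1. Runx1 is also expressed in blood and immune cells, and macrophage markers moved with it. Without that rat, 9 of 9 tested were higher on the left with a median log2FC of 1.53. Of these markers 6 were called, where 7.64% of all genes were. Their part in the Runx1 value was not tested. Runx3 had 63 to 236 counts in FOD-CCI replicates 2 to 4 and 76 to 157 in SOD-CCI, and its exact p was 0.750 over the 5 rats.

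The diets were then taken apart. In SOD-CCI versus SOD-CT no member was called with all libraries or without either set of libraries. With all libraries 0% of genes were called, where 13.8% had an unadjusted p under 0.05. The share called was 0.592% without the libraries with spinal cord transcripts and 1.32% without the muscle library as well. Etv1 stood at -0.45 ± 0.31, at -0.45 ± 0.22 without the 3 libraries and at -0.58 ± 0.20 without the muscle library too (adjusted p = 0.235). Pou4f1 had 185, 187 and 159 CPM in SOD-CCI, above all 4 SOD-CT libraries at 62.8, 154, 150.2 and 113 CPM, as were 11.8% of the 14484 genes, and its log2FC without the 3 libraries was 0.44 ± 0.19 (adjusted p = 0.306), not called. Drgx and Prdm12 were not called in the soy oil diet, where their sham libraries spread widely on the low side. Drgx had 60.2, 59.1 and 61.3 CPM in SOD-CCI and 15.6, 63.4, 65.2 and 31.2 CPM in SOD-CT, and Prdm12 had 63.1, 57.6 and 62.5 CPM against 17.8, 74.6, 76.2 and 39.4 CPM. Their log2FC were 0.38 ± 0.33 and 0.15 ± 0.44 with all libraries, and 0.16 (95% interval -0.34 to 0.66) and -0.07 (-0.59 to 0.45) without the 4 libraries.

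In FOD-CCI versus FOD-CT, 3 members were called lower once the 4 libraries were left out, and those calls did not hold with the replicate number as a block. Drgx had 29.0, 60.5 and 53.6 CPM in FOD-CT and 26.6, 30.2, 31.5 and 26.6 CPM in FOD-CCI, and Prdm12 had 16.8, 68.6 and 72.3 CPM against 32.3, 28.9, 37.8 and 23.1 CPM. In both genes the low sham value is the library with spinal cord transcripts. Without the 3 libraries the groups did not overlap, which was so for the 5 members named above and for the summed neuron markers. With all libraries the log2FC was -0.72 ± 0.33 for Drgx, -0.78 ± 0.44 for Prdm12 and -0.56 ± 0.31 for Etv1, with adjusted p of 1.00 for each, and 0% of genes were called and 4.52% had an unadjusted p under 0.05. Without the 3 libraries with spinal cord transcripts the values were -0.97 ± 0.35, -1.24 ± 0.37 and -0.89 ± 0.25, with 0 genes called and 8.03% at an unadjusted p under 0.05. Without the muscle library as well, which is a sham library of the other diet and enters this contrast through the shared estimate of spread, the scaling and the genes that pass the filter, Prdm12 fell by 1.25 ± 0.26 (adjusted p = 0.0442), Etv1 by 0.89 ± 0.21 (adjusted p = 0.0636) and Drgx by 0.98 ± 0.25 (adjusted p = 0.0810). These were 3 of 9 members called lower, where 3.47% of 15177 genes were called and 1.57% called lower. The FOD-CT group then held 2 libraries, and 1 of them, FOD-CT replicate 2, had 26994 CPM of muscle markers. With the replicate number as a block in the same libraries none of the 3 was called, at -1.05 ± 0.19 for Prdm12, -0.86 ± 0.24 for Etv1 and -0.78 ± 0.22 for Drgx (adjusted p = 0.132, 0.256 and 0.263), and 1 gene in all was called. Scaled to the neuron list in the same libraries, Prdm12 was called at -0.83 ± 0.24 (adjusted p = 0.0677), and Drgx at -0.53 ± 0.26 (adjusted p = 0.215) and Etv1 at -0.44 ± 0.25 (adjusted p = 0.277) were not.

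The left to contralateral comparison within FOD-CCI rats rested on 2 rats once the rat of replicate 1 was left out. The contralateral library of 1 of them, FOD-CCI replicate 3, held 9254 CPM of muscle markers. Drgx was 50.2 and 46.5 CPM on the contralateral side and 30.2 and 31.5 CPM on the left, and Prdm12 47.1 and 61.2 CPM against 28.9 and 37.8 CPM. Their log2FC were -0.65 ± 0.21 and -0.70 ± 0.22 (adjusted p = 0.263 and 0.241 by edgeR), where 0.914% of genes were called. With all 3 rats they were 0.53 ± 0.79 and 0.77 ± 1.38, with 0.0137% of genes called. In SOD-CCI rats, Drgx stood at -0.05 ± 0.17, Prdm12 at -0.33 ± 0.18 and Etv1 at -0.79 ± 0.17 without that rat, and Etv1 alone was called (adjusted p = 0.0446, where 3.14% of genes were called). With all 6 rats in the fit, Etv1 in SOD-CCI rats stood at -0.79 ± 0.25 with an adjusted p of 0.398, where 0.131% of genes were called. DESeq2 on the same 12 libraries called it at -0.81 ± 0.26 (adjusted p = 0.0669), and with scaling to the neuron list and without that rat it was not called, at -0.55 ± 0.25 (adjusted p = 0.346).

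Whether the injury difference depended on diet was tested as an interaction, and no gene was called in it with all libraries or without either set (0%). The interaction of Drgx was -1.09 ± 0.47 (adjusted p = 0.894), that of Prdm12 -0.93 ± 0.62 and that of Etv1 -0.11 ± 0.44. Without the 4 libraries, Drgx had -1.14 ± 0.34 and Prdm12 -1.18 ± 0.36, both with an adjusted p of 0.706 and both among the 6.86% of genes with an unadjusted p under 0.05 (5.01% with all libraries). The injury effect on these genes was therefore not shown to differ between the diets after adjustment. FOD-CCI and SOD-CCI themselves differed in Drgx by -1.003 ± 0.33 (edgeR adjusted p = 0.859) and in Prdm12 by -0.94 ± 0.44, and every FOD-CCI library was below every SOD-CCI library in both genes, as in Runx1 and in 9.28% of the 14484 genes. No gene was called in that comparison (0%), and 5.4% had an unadjusted p under 0.05. The difference between diets in left versus contralateral was 0.58 ± 1.03 for Drgx, 1.10 ± 1.75 for Prdm12 and 0.68 ± 0.36 for Etv1 with all 6 rats, and -0.60 ± 0.27, -0.37 ± 0.28 and 0.30 ± 0.26 without the rat of FOD-CCI replicate 1, with adjusted p of 0.997 and 0.999 and 0% of genes called in either (2.91% had an unadjusted p under 0.05 with all 6 rats). These comparisons share libraries with each other, so their values are not independent.

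The diet alone and the contralateral side gave no call among the members. In FOD-CT versus SOD-CT the 8 fitted members lay between -0.25 and 0.13, with adjusted p from 0.969 to 1.00, and 0% of genes were called and 3.39% had an unadjusted p under 0.05. Without the 3 libraries with spinal cord transcripts all 9 members lay above 0, from 0.12 to 0.54, and without the muscle library as well from -0.09 to 0.27, again with no gene called (adjusted p of 1.00 for each member). Contralateral SOD-CCI against SOD-CT gave values of 0.26 to 0.76 and contralateral FOD-CCI against FOD-CT -0.97 to 0.06, with 0% of genes called in either and 7.13% and 1.7% at an unadjusted p under 0.05. Contralateral FOD-CCI against contralateral SOD-CCI gave -1.59 to -0.38, or -1.38 to 0.20 without the spinal cord libraries, again with 0% called (7.07% at an unadjusted p under 0.05 with all libraries). A p that misses the threshold does not show that the levels were alike.

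The injury response itself was present in the same libraries, though not for every gene in every rat. Without the rat of FOD-CCI replicate 1, Atf3 was 4.93 ± 0.31 higher on the log2 scale on the left, the neuropeptide gene Gal 4.03 ± 0.38, the developmental transcription factor gene Sox11 2.54 ± 0.43 and Jun 1.74 ± 0.16, all 4 called (adjusted p of 9.9e-05, 0.000882, 0.0120 and 0.000880 by edgeR). Sprr1a, the remaining gene of that check, did not pass the filter in this comparison. In FOD-CCI replicate 2, Sox11 was at 4.47 CPM on the left and 4.17 CPM on the contralateral side. The other left libraries of these rats had 26.0 to 45.5 CPM of Sox11. Atf3 has a near-identical second entry in the table, so its reads may be split between them.

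Other transcription factors of DRG neurons, a list of 18 of which 17 were in the table, moved in both directions. Without that rat, 14 were tested, 4 were called lower and 1 higher on the left, with a median log2FC of 0.00. Of all 14992 genes tested there, 7.64% were called and 3.33% were called lower. The lowest was Mafa, a factor of mechanoreceptors, at -1.87 ± 0.42 (adjusted p = 0.0398), which was also lower in CCI than in sham DRG without the 3 libraries, at -2.34 ± 0.53 (adjusted p = 0.0525). The 1 called higher was Klf7, a regulator of axon growth, at 0.73 ± 0.17 (adjusted p = 0.0468). Cux2, which has a second near-identical entry in the table, stood at 0.79 ± 0.49 with an adjusted p of 0.418. With all 6 rats none of the 14 was called, and Mafa stood at -1.72 ± 0.37 and Klf7 at 0.87 ± 0.19.

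Of 10 cofactors that act with these factors, 5 had a log2FC below 0 and 5 above 0 in left against contralateral without that rat. Only 1 was called, where 7.64% of all genes were, the histone methyltransferase Ehmt1 at 0.72 ± 0.19 (adjusted p = 0.0743). Its partner Ehmt2, which forms a complex with it and with which Prdm12 is known to act, stood at 0.39 ± 0.16, the LIM cofactor Ssbp3 at 0.26 ± 0.13 and the corepressor Tle4 at -0.46 ± 0.18, none of them called. With all 6 rats 0 of 10 were called.

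Genes that mark the nociceptor branch were below 0 in 15 of 24, with a median log2FC of -0.35 against 0.02 for all genes tested, without that rat. Of the 24, 2 were called lower and 1 higher, where 7.64% of all genes were called and 3.33% called lower. Kcnd3, a potassium channel gene of small neurons with a second near-identical entry in the table, fell by 0.76 ± 0.16 (adjusted p = 0.0276) and Gfra2, a coreceptor of non-peptidergic nociceptors, by 0.61 ± 0.14 (adjusted p = 0.0381). Tac1, which encodes substance P, stood at 0.47 ± 0.20 and Ret at 0.26 ± 0.15, not called. With all 6 rats the list had 17 of 23 above 0 and a median of 0.41, which again rests on the library labelled FOD-CCI contralateral replicate 1.

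Genes that mark proprioceptors and mechanoreceptors gave 2 called lower and 1 higher of 16 tested, with a median log2FC of -0.28 without that rat. The share over all genes was 7.64% called and 3.33% called lower. Pvalb, a calcium buffer of proprioceptors and of fast muscle, fell by 1.09 ± 0.23 (adjusted p = 0.0286), and 7 of 7 tested skeletal muscle markers were also lower on the left, with a median of -2.15 and 0 called. The part of muscle in the Pvalb value was not tested. Spp1, which proprioceptors share with other cells, was higher by 0.69 ± 0.14 (adjusted p = 0.0228). Esrrg stood at -0.94 ± 0.32 and Kcnc1 at -0.66 ± 0.29, with adjusted p of 0.147 and 0.243.

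**Figure D5:**
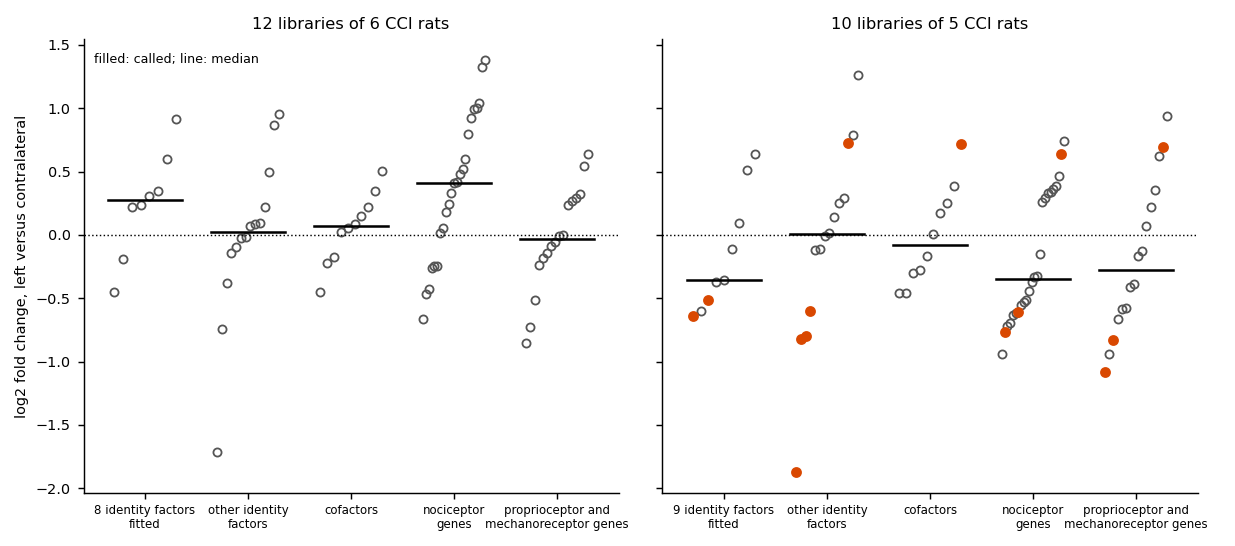
Log2 fold change of left against contralateral DRG (vertical axis) for the fitted identity factors and 4 gene lists, in 12 libraries of 6 rats and in 10 libraries of 5 rats without the rat of FOD-CCI replicate 1; filled points are called genes and the line is the median. No gene of these lists is called with 6 rats, and Etv1 and Prdm12 are the 2 called factors with 5 rats.

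Some genes varied with a factor from library to library within groups, as judged by the Pearson correlation of log2 CPM after group means were subtracted, over the 14 left libraries. These values are a description, because the libraries share tissue makeup. The closest to Pou4f1 were Osbpl3 (r = 0.99) and Mical1 (0.98), the closest to Prdm12 were Prune2 (0.98) and Tpbgl (0.97), and the closest to Etv1 were Tm6sf1 (0.95) and Sertm1 (0.94). Over the 12 libraries without spinal cord transcripts the r was 0.92 for Osbpl3, 0.99 for Prune2 and 0.89 for Tm6sf1. The closest to Drgx were RGD1307443 and Them6 (0.94 each), to Pou4f2 Atp6v1c2 (0.97) and Hs3st2 (0.95), to Tlx3 Tbx2 and A4galt (0.96 each), to Runx1 LOC100912585 (0.97) and Syt7 (0.93), and to Isl1 Zc2hc1a (0.94) and an unnamed locus (0.94). Over the same 12 libraries r was lowest for that unnamed locus (0.78), Mical1 (0.81), Sertm1 (0.83) and Zc2hc1a (0.83).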

How the data were processed

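RNA was measured in 20 rat DRG libraries prepared after poly-A selection. The authors' raw counts per gene came from featureCounts 1.5.0-p3, after trimming by fastp and alignment by HISAT2, and the deposited FPKM values are the authors' counts divided by gene length and scaled per library. The genome build and the treatment of multi-mapping reads are not given in the sources used here, and the library protocol describes both stranded and non-stranded preparation. The series' design text also has a diet period after surgery. It is longer than the time to collection taken here, and this conflict was not resolved. Samples were grouped by their labels, and 1 replicate is 1 rat.

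Counts were tested with edgeR 4.0.16 (R 4.3.3; TMM scaling, quasi-likelihood F test, Benjamini-Hochberg adjustment over all genes tested). Genes needed at least 10 counts in 90% of the libraries of a fit, that is 13 of 14 left libraries, 11 of 12 libraries of CCI rats and 12 of 13 sham and contralateral libraries. A gene was called where its adjusted p did not exceed 0.1 and it changed at least 1.2-fold. Standard errors are the log2 fold change divided by the square root of F. Left against contralateral was fitted with the rat as a block: the deviations of the 2 DRG of a rat correlated at 0.132 to 0.415 in 6 of 6 rats. Replicate numbers shared by FOD-CT and FOD-CCI also correlated in 3 of 3 pairs (0.184 to 0.419), and a fit with the number as a block called no member in that comparison. The highest of these, 0.419, was replicate 1, where both libraries carried spinal cord transcripts. So did both libraries of the rat of FOD-CCI replicate 1, which correlated at 0.380. Within-rat ratios were taken after adding 0.5 counts and tested by an exact permutation test over sign changes. Genes named besides the 9 factors were 5 injury genes and, from each of 4 gene lists, the 4 with the smallest p in left against contralateral over all 6 rats, and for each fitted factor the 2 genes most correlated with it. A gene that this rule names is not reported here. DESeq2 1.42.0, other scalings, no filter, a length correction and leaving out libraries were the alternatives. Leaving out the muscle library, joining left-out libraries with neuron-list scaling or the replicate block, and the exact tests without 1 rat were chosen after seeing the data. The 9 factors and the gene lists were chosen with earlier results of these data known. Scripts were tested on simulated counts. Intervals of fold changes come from the edgeR fit and its spread between libraries, while count floors cover counting error only.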

Additional observations from a re-analysis of the deposited data

Results flagged for a closer look

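The diet by injury interaction of Drgx was -1.0948 on the log2 scale (edgeR's quasi-likelihood test, adjusted p = 0.894), which stood out because its unadjusted p was under 0.05, among 16 interaction tests of the factors. It does not pass the adjustment over all genes. Dixon's test for a single library far from the rest was made for the 9 factors in SOD-CT and FOD-CCI, the groups of 4 libraries, and found none in 18 tests of a factor in a group; groups of 3, the contralateral ones among them, were not tested.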

How the results depend on the processing

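The number of genes called depended on the processing. For CCI against CT over both diets (0 called), DESeq2 called 476, DESeq2 size factors in edgeR 24, no filter 224, the length correction 65, leaving out the spinal cord libraries 458, with neuron-list scaling as well 491, leaving out the muscle library too 1180, and that with neuron scaling 2139 or with the replicate block 528. For SOD-CCI against SOD-CT (0 called) the same DESeq2, spinal, spinal with neuron scaling and spinal or muscle settings gave 594, 87, 39 and 200, the last with neuron scaling 242 and with the block 9, and for FOD-CCI against FOD-CT (0) DESeq2 gave 21, spinal with neuron scaling 35, spinal or muscle 526, that with neuron scaling 1751 and with the block 1. DESeq2 called 2 genes in FOD-CCI against SOD-CCI, 42 in the interaction, 52 in contralateral SOD-CCI against SOD-CT and 58 between the contralateral groups. For left against contralateral (140 called), DESeq2 gave 790, no filter 456, neuron scaling 34, no spinal rat 1146 and that with neuron scaling 1344. In SOD-CCI rats (19) these were DESeq2 472, no filter 220, no spinal rat 471 and with neuron scaling 475, in FOD-CCI rats (2) DESeq2 264, no filter 61, 137 and 112, and for the diet difference (0) DESeq2 60, no filter 3 and neuron scaling 4. Leaving out 1 replicate gave 0 to 517, 0 to 47 and 0 to 43 genes for the 3 CCI against CT comparisons, and 8 to 1146, 0 to 471 and 0 to 137 for left against contralateral over both diets, in SOD-CCI and in FOD-CCI rats.

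With the replicate number as a block, 1 gene was called for CCI against CT over both diets and 1 in SOD-CCI against SOD-CT, and Pou4f2 turned to 0.0684. With the block and without spinal or muscle libraries, Tlx3 turned to -0.1046 in CCI against CT, and Drgx and Prdm12 in SOD-CCI against SOD-CT to -0.0107 and -0.3118. Same-numbered libraries of the other group pairs correlated at -0.253 to 0.233, so there the numbers were not taken to pair rats. Without the rat block, left against contralateral called 10 genes over both diets, 0 in SOD-CCI and 0 in FOD-CCI rats, Isl1, Drgx and Prdm12 turned to -0.2001, -0.1207 and -0.2586, Drgx and Prdm12 in FOD-CCI rats to -0.1833 and -0.1608, and the diet difference of Drgx to -0.1253.

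These signs turned, and the cause was not tested. In CCI against CT, Pou4f2 was 0.0020 with neuron scaling. Prdm12 in SOD-CCI against SOD-CT was -0.0706 without spinal or muscle libraries. The Etv1 interaction was 0.2429 with neuron scaling, 0.1769 with the length correction 0.1998 without spinal libraries and with neuron scaling, and 0.0896 without the muscle library too. In left against contralateral without the spinal rat, Isl1, Drgx, Prdm12 and Tlx3 were -0.3701, -0.3525, -0.5179 and -0.1144, and with neuron scaling as well Isl1, Drgx and Prdm12 were -0.1299, -0.1129 and -0.2789. Drgx in SOD-CCI rats was 0.1885 with neuron scaling, with or without that rat. In FOD-CCI rats Drgx and Prdm12 were -0.6521 and -0.7039 without the rat, and -0.4144 and -0.4665 with neuron scaling as well. The diet difference of Drgx and Prdm12 was -0.5993 and -0.3721 without the rat, -0.6029 and -0.3753 with neuron scaling as well, and with neuron scaling alone Drgx was -0.0206 and Etv1 -0.1918.

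Leaving out 1 replicate also turned signs. The ranges were -0.2465 to 0.1934 for Pou4f2 in CCI against CT, -0.0899 to 0.3356 for Prdm12 in SOD-CCI against SOD-CT (below 0 without SOD-CT replicate 1), and -0.4578 to 0.2276 for the Etv1 interaction. For left against contralateral they were -0.3701 to 1.0203 for Isl1, -0.3525 to 0.6945 for Drgx, -0.5179 to 1.1543 for Prdm12, -0.1144 to 1.3735 for Tlx3 and -0.6005 to 0.1153 for Pou4f2. In FOD-CCI rats they were -0.6521 to 1.467 for Drgx, -0.7039 to 2.6384 for Prdm12 and -0.4921 to 0.1047 for Etv1, and for the diet difference -0.5993 to 1.5451 for Drgx and -0.3721 to 2.9683 for Prdm12. Mean within-rat ratios ran from -0.3619 to 1.6181 for Isl1, -0.2587 to 0.6386 for Drgx, -0.4469 to 1.796 for Prdm12 and -0.0663 to 1.3694 for Tlx3. Every one of these within-rat lows was without FOD-CCI replicate 1. Over all settings, 734 values of the factors kept direction and side of the threshold, 16 passed it and 57 turned sign. In left against contralateral, leaving out the spinal rat and leaving out FOD-CCI replicate 1 are the same fit. Its values are counted under both settings, so these totals are not of distinct fits. Groups of 2 to 4 rats limit what these comparisons can show, most for Runx3 and Pou4f2, which had the fewest counts.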
